A study of Mus musculus with 12 samples.

Results

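The aquaporins are membrane channels for water, and the 7 mouse genes followed here, Aqp1, Aqp3, Aqp4, Aqp7, Aqp8, Aqp9 and Aqp11, were selected by symbol from a table of read counts for 55421 genes. Each symbol matched 1 row, and 6 of the 7 passed the filter on low counts that left 14076 genes for testing; Aqp3 did not. Messenger RNA had been sequenced from livers of adult male C57BL/6 mice of the strains Fra1hep and Fra2hep, which carry a transgene for a subunit of the transcription factor AP-1. The Fra1 mutants (n = 3) expressed the Fra-1 transgene after doxycycline, which keeps it silent, was withdrawn at weaning, 3 weeks after birth. The Fra1 controls (n = 3) were their littermates, kept in the same cage and given the same doxycycline and withdrawal. The Fra2 mutants (n = 3) expressed the Fra-2 transgene after the same withdrawal, and the Fra2 controls (n = 3) were their littermates, likewise treated. Titles give 2 months for every library, without naming the starting point, and the design text places all sampling 2 months after withdrawal. Under treatment, however, the Fra2 mutants are listed with 9 months and the other 9 libraries with 2 months. If the entry of 9 months is right, age and Fra-2 cannot be told apart in the Fra2 comparison. The tissue is labelled as mostly hepatocyte. Neither the promoter behind each transgene nor the alleles carried by the controls is given in the sources used here.

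Aquaporins sit in the membrane as tetramers, and each subunit forms its own pore. Orthodox members pass water, the aquaglyceroporins also pass glycerol, and further members lie in membranes inside the cell. In liver they are known for water movement into bile, for the uptake of glycerol as a substrate of glucose synthesis, and for hydrogen peroxide and ammonia transport. Hepatocytes are the main site of Aqp8, Aqp9 and Aqp11, endothelium, red cells and bile duct cells of Aqp1, and Aqp7 is best known from adipocytes.

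Libraries held 16834041 to 20464807 counts. All 8 hepatocyte markers were detected in every library, and albumin took 3.54% to 9.75% of the counts. The targeted transcripts followed the labels: Fosl1, which encodes Fra-1, had 172, 193 and 252 counts in Fra1 mutants and 0, 0 and 1 in Fra1 controls. Fosl2, which encodes Fra-2, had 6821, 7718 and 8101 counts in Fra2 mutants and 221, 861 and 297 in Fra2 controls. Fra2 control 1 also had 11 Fosl1 counts, against 1 in each of the other Fra2 controls, and Fra2 control 2 had the highest Fosl2 count of its group. The Fra2 log2 fold changes of Aqp8 and Aqp4 are given with all libraries and without each of these 2. Means, spreads, shares and ratios of the Fra2 controls include both.

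Positions are on GRCm38. Aqp8 (ENSMUSG00000030762.11) spans chromosome 7 from 123462291 to 123468004 on the plus strand, and Aqp11 (ENSMUSG00000042797.9) chromosome 7 from 97724006 to 97738289 on the minus strand. Aqp9 (ENSMUSG00000032204.13) spans chromosome 9 from 71110659 to 71168682 on the minus strand. Aqp7 (ENSMUSG00000028427.13, 41033074 to 41048139) and Aqp3 (ENSMUSG00000028435.8, 41092722 to 41098183) are close together on chromosome 4, both on the minus strand. Aqp1 (ENSMUSG00000004655.5) spans chromosome 6 from 55336432 to 55348555 on the plus strand. In the GENCODE M21 annotation no exon of another gene overlaps an exon of any of them, although Aqp4 and Aqp9 have antisense genes on the other strand.

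The 250 bases before the annotated transcript start were examined in RefSeq sequence (GRCm38.p6), which was at hand for 6 of the 7 genes in 8 windows. Searched on both strands were the AP-1 motif TGANTCA, the cAMP response element TGACGTCA, a PPAR element (AGGTCA repeated after a gap of 1 base) and the TATA box TATAAA. Shown are the windows of Aqp8, which fell in Fra1 mutants, and Aqp7, whose Fra1 mutants and controls did not overlap, and the second of the Aqp9 windows, the one with an AP-1 match. Capitals mark a match, and lower case holds none.
Aqp8 (chr7:123462044-123462293, plus strand): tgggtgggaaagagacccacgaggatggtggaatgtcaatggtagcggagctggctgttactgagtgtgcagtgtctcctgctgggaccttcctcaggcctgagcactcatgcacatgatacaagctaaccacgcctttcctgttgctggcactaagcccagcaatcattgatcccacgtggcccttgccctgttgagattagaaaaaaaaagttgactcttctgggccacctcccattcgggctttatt
Aqp7 (chr4:41048137-41048386, minus strand): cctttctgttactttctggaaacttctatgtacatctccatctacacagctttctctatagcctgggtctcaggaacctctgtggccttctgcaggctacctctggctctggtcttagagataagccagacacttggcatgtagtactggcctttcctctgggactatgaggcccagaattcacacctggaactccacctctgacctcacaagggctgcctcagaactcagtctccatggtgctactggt
Aqp9 (chr9:71162634-71162883, minus strand): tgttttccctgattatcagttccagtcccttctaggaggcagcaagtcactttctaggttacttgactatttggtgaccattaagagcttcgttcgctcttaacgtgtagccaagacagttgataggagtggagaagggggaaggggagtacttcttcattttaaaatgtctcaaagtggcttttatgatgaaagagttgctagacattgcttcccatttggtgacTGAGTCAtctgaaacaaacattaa
The Aqp9 match begins 24 bases before the start of that transcript, inside the annotated span of the Aqp9 gene. Of all 32851 windows in the table, 6.75% hold the AP-1 motif, 1.55% the cAMP response element, 0.0335% the PPAR element and 12.4% the TATA box. Aqp3 held a TATA box 29 bases before its start, and the other windows of the members held none of these letters. No match overlapped another motif.

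Of the 6 aquaporins tested, Aqp8 and Aqp4 fell in Fra1 mutants and none rose, where 0.938% of all tested genes were lower and 2.9% higher by edgeR's quasi-likelihood test at an adjusted p under 0.05 (540 genes, or 3.84%, in either direction). In Fra2 mutants none of the 6 passed, where 1.07% of all genes did (0.845% higher, 0.22% lower). By edgeR 3 of the 6 (Aqp4, Aqp7 and Aqp8) had an unadjusted p under 0.05, as had 1613 of all 14076 genes. The p of Aqp7 is a description only, because Aqp7 passed the filter on low counts only through mutant libraries. Without Fra2 mutant 2 the log2 fold change of Aqp7 was -1.47. DESeq2 called 1 of the 6, Aqp8, among 438 genes. How many genes DESeq2 tested is not given here, so this call cannot be set against a share of all genes. Since these livers were measured in bulk, fewer cells of a type and less RNA per cell cannot be told apart. P-values set a difference of means against the spread between mice within groups, with 3 mice in each. In the main fit that spread was estimated over all 4 groups, so the spread of one strain enters the tests of the other.

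**Figure D1:**
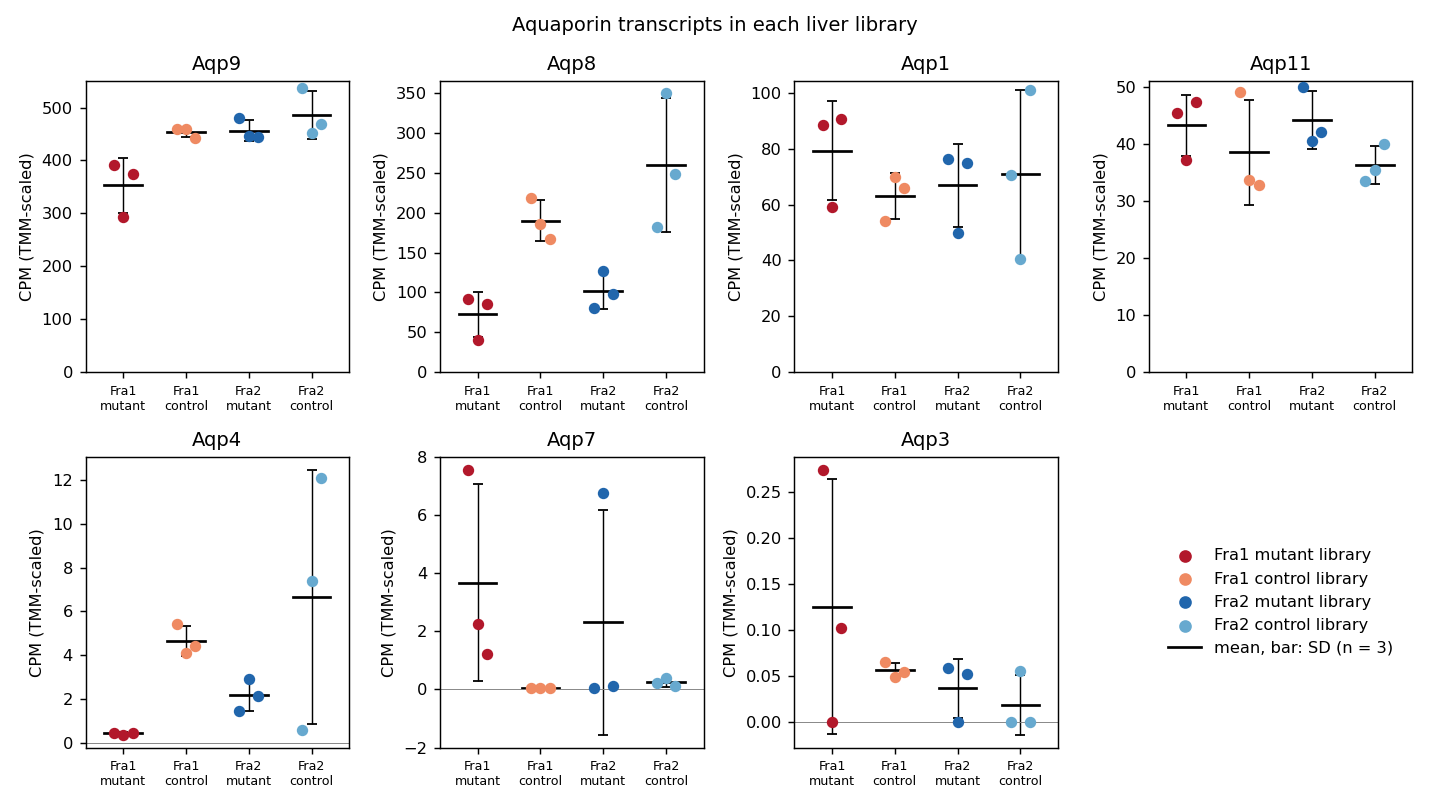
Level of each aquaporin in CPM scaled by TMM factors, with 1 point per library, a line at the group mean and a bar for the SD (n = 3). Aqp8 was lower in all 6 mutant libraries than in any control of the same strain, while Aqp7 was high in the 3 Fra1 mutants and in Fra2 mutant 2.

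Aqp8, a channel of the bile canaliculus and of intracellular vesicles and mitochondria that passes water and hydrogen peroxide, had 92.1, 40.0 and 84.8 CPM (counts relative to the TMM-scaled library size) in Fra1 mutants, against 218, 185 and 167 CPM in Fra1 controls. It had 80.5, 127 and 98.2 CPM in Fra2 mutants, against 183, 350 and 248 CPM in Fra2 controls. No mutant reached the lowest control of its strain, and Fra1 mutant 2 was the lowest of all 12 libraries. The mean was 72.3 CPM ± 28.2 in Fra1 mutants and 190 ± 25.7 in Fra1 controls (SD, n = 3 each), a log2 fold change of -1.39 ± 0.32 (SE) and a fold of 0.381, with an adjusted p of 0.0336 by edgeR. The mean was 102 CPM ± 23.3 in Fra2 mutants and 260 ± 84.3 in Fra2 controls (SD, n = 3 each), so that the log2 fold change was -1.35 ± 0.32 (SE). Its adjusted p of 0.0823 by edgeR was over the threshold. The Fra2 effect minus the Fra1 effect was 0.04 on the log2 scale with a 95% interval from -0.93 to 1.01, and it did not pass (adjusted p = 0.997 by edgeR). The 8 hepatocyte markers summed to 58800 to 76400 CPM in Fra2 mutants, against 103000 to 128000 in Fra2 controls, and to 56300 to 110000 CPM in Fra1 mutants, against 85100 to 120000 in Fra1 controls, with none called. Albumin made up most of these sums, at 44400 CPM ± 8680 in Fra2 mutants and 92100 ± 14100 in Fra2 controls (SD, n = 3 each). The other markers did not share one direction: 5 of 8 had a negative log2 fold change in Fra2 with a median of -0.05, and Apob, the apolipoprotein of very low density lipoprotein, was higher in all 3 Fra2 mutants (log2 fold change 0.88, adjusted p = 0.115 by edgeR). Their part in the Aqp8 level was not tested.

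The Fra1 call of Aqp8 held without Fra1 mutant 1 (adjusted p = 0.0452) and was lost without each of the other 5 libraries, with adjusted p from 0.0559 to 0.123 by edgeR. The fold stayed between -1.61 and -1.10 on the log2 scale in those 6 fits. The call was also lost when the Fra1 libraries were fitted alone (adjusted p = 0.067) and with no filter on low counts (0.0899). In Fra2 the log2 fold change was -1.56 without control 1 (adjusted p = 0.064) and -1.08 without control 2 (adjusted p = 0.26).

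Aqp9, the aquaglyceroporin through which hepatocytes take up glycerol, was separated between the groups in Fra1 livers and not in Fra2 livers. It had 391, 293 and 375 CPM in Fra1 mutants, against 460, 459 and 443 CPM in Fra1 controls. All 3 Fra1 mutants were lower than the 3 controls, by a log2 fold change of -0.36 ± 0.13 (SE). The adjusted p was 0.168 by edgeR and 0.0481 by DESeq2. In Fra2 livers it had 480, 445 and 444 CPM in mutants and 538, 452 and 468 CPM in controls, ranges that overlap (log2 fold change -0.09, 95% interval -0.37 to 0.19, edgeR).

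Set against Aqp9 in the same library, which needs no scaling between libraries, Aqp8 had 0.236, 0.137 and 0.226 counts per Aqp9 count in Fra1 mutants, against 0.473, 0.404 and 0.377 in Fra1 controls. The Fra2 mutants had 0.168, 0.284 and 0.221, against 0.339, 0.775 and 0.531 in Fra2 controls. All 6 mutants thus lay under all 6 controls. The exact two-sided permutation test gave p = 0.1 in each strain, which is the smallest p that 3 against 3 allows. This ratio was chosen after its values were seen.

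**Figure D2:**
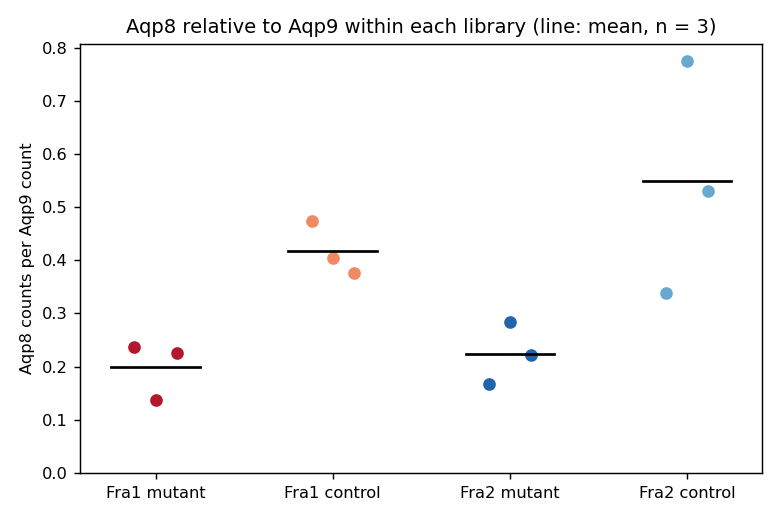
Counts of Aqp8 per count of Aqp9 in each library, with a line at the mean (n = 3 per group). The 6 mutant livers lie between 0.137 and 0.284 and the 6 control livers between 0.339 and 0.775.

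Aqp4 (ENSMUSG00000024411.11, chromosome 18 from 15389496 to 15410982, minus strand), the water channel of astrocyte endfeet, was a low-level transcript in these livers and the one with the largest fall among the tested aquaporins. It had 8, 7 and 9 counts in Fra1 mutants, against 83, 83 and 82 in Fra1 controls. The Fra1 groups were far apart and each was tight, at 0.421 CPM ± 0.0465 in mutants and 4.64 ± 0.699 in controls (SD, n = 3 each). The log2 fold change was -3.44 ± 0.83 (SE), a fold of 0.0923, with an adjusted p of 0.044 by edgeR. The call was lost on leaving out any 1 of the 6 Fra1 libraries (adjusted p from 0.088 to 0.127 by edgeR), while the log2 fold change stayed between -3.52 and -3.33. When the Fra1 libraries were fitted without the Fra2 libraries, the adjusted p was 0.00151 by edgeR. In that fit Aqp4 passed the filter on low counts only through the Fra1 controls, so this value is given as a description. With all libraries and no filter on low counts the adjusted p was 0.137 by edgeR.

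In Fra2 livers Aqp4 had 25, 53 and 41 counts in mutants and 10, 132 and 224 counts in controls. Control 1, the library with 11 Fosl1 counts, lay below all 3 mutants and near the level of the Fra1 mutants, whereas the other controls lay above all mutants. With all libraries the log2 fold change was -1.62 ± 0.71 (SE; adjusted p = 0.41 by edgeR). Without control 1 it was -2.17 with an adjusted p of 0.01, without control 2 it was -1.55 with an adjusted p of 0.685, and without control 3 it was -0.87 with an adjusted p of 0.697. Whether the Fosl1 counts of that control bear on its Aqp4 level was not tested. The difference of effects between strains, 1.81 on the log2 scale (95% interval -0.55 to 4.18), did not pass (adjusted p = 0.854 by edgeR).

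Aqp7, the aquaglyceroporin that releases glycerol from adipocytes, was near absent from control livers. It had 138, 43 and 24 counts in Fra1 mutants and 1 count in each Fra1 control. All 3 Fra1 mutants were higher, and they differed widely among themselves. The ratio of summed counts, 205 against 3, was 65.1, with a 95% counting interval from 22 to 318 that covers counting error only. Aqp7 passed the filter on low counts only through mutant libraries, so its presence among the tested genes already required a high mutant group, and its p-values are given as a description. By edgeR the adjusted p was 0.106 (log2 fold change 5.89 ± 1.77, SE), and other fits put it on either side of the threshold (0.0242 with the Fra1 libraries alone, 0.00627 by DESeq2).

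In Fra2 livers Aqp7 was uneven, with 1, 124 and 2 counts in mutants and 4, 7 and 2 in controls. Mutant 2 was far above the rest, and the other mutants lay at or below the lowest control. The log2 fold change of 3.24 ± 1.45 (SE, adjusted p = 0.426 by edgeR) became -1.47 without mutant 2. Some adipocyte markers were at or near 0 in mutants and controls alike. Adipoq and Lep had 0 counts in all 6 mutant livers, and Plin1 had 1 count in 1 of them. Fabp4, also on the list, had 133, 333 and 155 counts in Fra1 mutants, against 124, 111 and 99 in Fra1 controls. It had 162, 160 and 159 counts in Fra2 mutants, against 90, 147 and 202 in Fra2 controls. Fabp4 and Plin4 were the 2 markers tested, and neither passed. The 7 adipocyte markers summed to 10.2 to 23 CPM in Fra1 mutants and 7.96 to 17.2 in Fra1 controls. In Fra2 livers they summed to 13.8 to 23.2 CPM in mutants and 11.9 to 20.9 in controls. The part of these markers in the Aqp7 level was not tested. Cidec, a lipid droplet protein of fat cells and fatty liver, had 172, 2923 and 964 counts in Fra2 mutants, highest in the same mutant 2. Fra2 controls had 17, 101 and 25 Cidec counts. In Fra1 mutants it had 137, 144 and 247 counts, against 17, 8 and 10 in Fra1 controls. Fra1 mutants 1 and 2 had close Cidec counts (137 and 144) but differed in Aqp7 (138 and 43). Mutant 3 had the highest Cidec count and the lowest Aqp7 count of the Fra1 mutants.

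**Figure D3:**
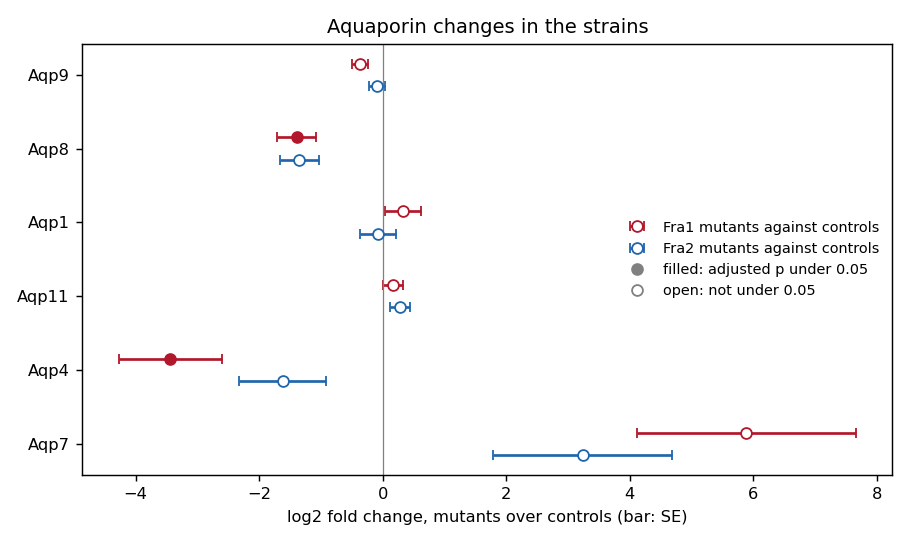
Log2 fold change of each tested aquaporin, mutants over controls, with the SE as a bar (edgeR, 12 libraries in 1 fit). Filled points mark an adjusted p under 0.05, reached by Aqp8 (-1.39) and Aqp4 (-3.44) in Fra1 mutants.

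Aqp11, an unorthodox member of the endoplasmic reticulum, had 45.4, 37.2 and 47.3 CPM in Fra1 mutants and 49.0, 33.6 and 32.9 CPM in Fra1 controls, which overlap. In Fra2 livers it had 50.0, 40.5 and 42.1 CPM in mutants and 33.6, 35.5 and 40.1 CPM in controls. All 3 Fra2 mutants were above the controls by a narrow margin, and the log2 fold change of 0.28 ± 0.16 (SE) had an adjusted p of 0.582 by edgeR. The 95% intervals ran from -0.19 to 0.53 in Fra1 and from -0.08 to 0.64 in Fra2.

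Aqp1, the water channel of endothelium, red cells and bile ducts, had 88.3, 59.0 and 90.6 CPM in Fra1 mutants and 53.9, 69.7 and 66.0 CPM in Fra1 controls. It had 76.4, 49.9 and 74.7 CPM in Fra2 mutants and 70.5, 40.6 and 101 CPM in Fra2 controls. Both pairs of groups overlap, and neither passed (log2 fold change 0.33 in Fra1 with a 95% interval from -0.32 to 0.98, and -0.08 in Fra2 from -0.73 to 0.57, edgeR). None of 10 sinusoidal endothelial markers passed in either strain, and they summed to 268 to 318 CPM in Fra1 mutants and 245 to 316 in Fra1 controls. The 7 erythroid markers, 5 of them tested, summed to 156 to 244 CPM in Fra1 mutants, against 288 to 394 in Fra1 controls, with none called. That gap came from Alas2, the heme synthesis enzyme of red cell precursors, at 66.7 CPM ± 42 in Fra1 mutants and 229 ± 57.8 in Fra1 controls (SD, n = 3 each). The 4 tested globin genes had positive log2 fold changes with overlapping groups, so that 1 of 5 was negative and the median was 0.10. Their part in the Aqp1 level was not tested.

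Aqp3, an aquaglyceroporin known from kidney and epithelia, stayed at or near 0. It had 5, 0 and 2 counts in Fra1 mutants, 1 in each Fra1 control, 1, 0 and 1 in Fra2 mutants and 0, 1 and 0 in Fra2 controls. The ratio of summed counts in Fra1 was 2.22, with a 95% counting interval from 0.507 to 13.3, so no difference was detectable at this depth. Of the remaining family members in the table, Aqp2, Aqp6, Aqp12 and Mip had 0 counts in all 12 libraries, which allows levels of up to 0.147 to 0.178 CPM depending on the library. Aqp5 did not exceed 5 counts in any library.

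Levels of different genes were compared per length, as CPM per kilobase of the union of a gene's exons. On that scale the family was carried by Aqp8 and Aqp9, then Aqp1 and Aqp11, with the remaining 3 far lower. Aqp9 averaged 85.1 ± 12.7 in Fra1 mutants and 110 ± 2.34 in Fra1 controls, and Aqp8 45.7 ± 17.8 in Fra1 mutants and 120 ± 16.3 in Fra1 controls (SD, n = 3 each). Aqp9 averaged 110 ± 4.86 in Fra2 mutants and 117 ± 11.1 in Fra2 controls, and Aqp8 64.4 ± 14.7 in Fra2 mutants and 165 ± 53.3 in Fra2 controls (SD, n = 3 each). Aqp9 was above Aqp8 in all 6 mutant livers, while Aqp8 was above Aqp9 in 2 of 3 livers of each control group, a difference within the spread of the control livers. The order in control livers depends on the length used: scaled by the longest coding transcript, Aqp9 averaged 172 and Aqp8 128 in Fra1 controls. Aqp1 (30.2 ± 6.72 in Fra1 mutants, 24.1 ± 3.14 in Fra1 controls) and Aqp11 (4.60 ± 0.568 and 4.09 ± 0.969 in the same groups, SD, n = 3 each) kept the next places in each group. Below them Aqp4 was ahead of Aqp7 in both control groups, at 0.744 ± 0.112 and 0.0198 ± 0.00294 in Fra1 controls. The order was turned in Fra1 mutants, at 0.0676 ± 0.00746 for Aqp4 and 1.30 ± 1.20 for Aqp7 (SD, n = 3). Summed over the 7 genes, the level per kilobase was 167 ± 38.3 in Fra1 mutants and 259 ± 16.8 in Fra1 controls, and 206 ± 6.8 in Fra2 mutants and 314 ± 37.5 in Fra2 controls (SD, n = 3 each). Aqp8 made up 26.6% of that sum in Fra1 mutants and 46.3% in Fra1 controls, and 31.1% in Fra2 mutants and 51.6% in Fra2 controls.

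The control groups of the strains were also compared. None of the 6 aquaporins passed edgeR's test between Fra2 and Fra1 controls, where 0 of all 14076 genes did (0%), 753 genes had an unadjusted p under 0.05 and DESeq2 called 17, no aquaporin among them. None of the 6 passed for a difference between strains in the mutant effect either, where 5 genes of the whole table did (0.0355%, of which 0.0071% higher and 0.0284% lower); none of the 6 had an unadjusted p under 0.05 and DESeq2 called none of them. The control groups differed in spread: the coefficient of variation was 87% for Aqp4, 32.4% for Aqp8 and 42.8% for Aqp1 in Fra2 controls, against 15.1%, 13.5% and 13% in Fra1 controls. For Aqp8 it was highest in Fra1 mutants, at 39%.

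**Figure D4:**
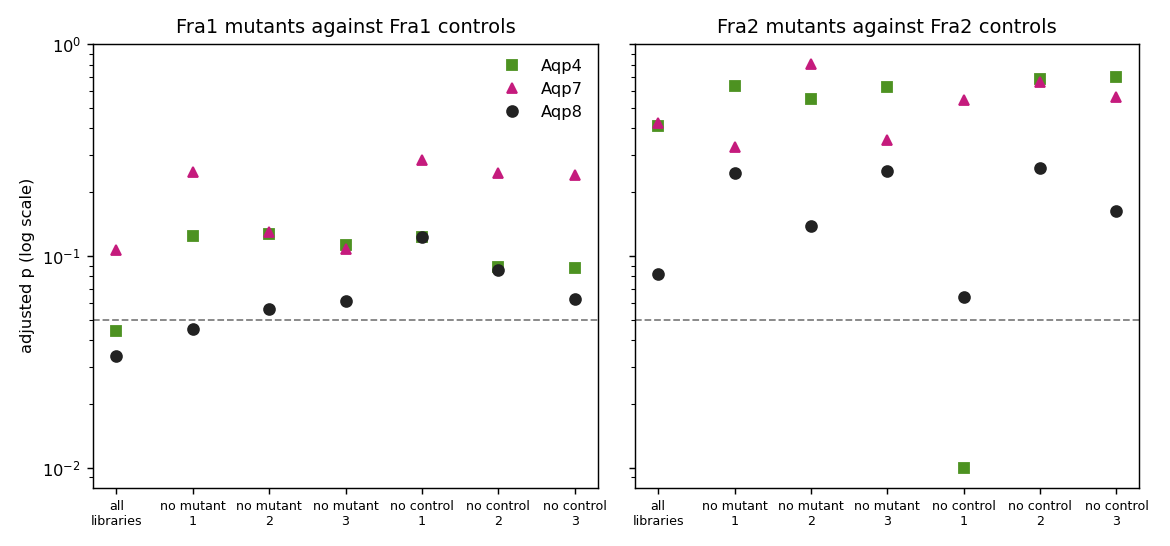
Adjusted p of Aqp4, Aqp7 and Aqp8 by edgeR on a log axis, with all libraries and with 1 library left out, in Fra1 (left) and Fra2 (right). The dashed line marks 0.05; Aqp8 in Fra1 stayed under it only without mutant 1, and Aqp4 in Fra2 reached 0.01 without control 1.

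Genes around the channels were examined in lists by role, and few changed. Of 14 tested genes of glycerol handling, 1 rose in Fra1 mutants and none fell; none passed in Fra2 mutants. The riser was Gpd1l, a glycerol-3-phosphate dehydrogenase-like enzyme, at 48.3 CPM ± 3.39 in Fra1 mutants and 31.9 ± 2.69 in Fra1 controls (SD, n = 3 each; log2 fold change 0.60, adjusted p = 0.012 by edgeR). Gk, the kinase that traps glycerol entering through Aqp9, had 94.7 CPM ± 20 in Fra1 mutants and 109 ± 20.9 in Fra1 controls (SD, n = 3 each), and did not pass. The list's median log2 fold change was -0.14 in Fra1 and 0.11 in Fra2, where that of all genes was 0.01 and -0.01.

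Of 13 genes regulated by PPAR-alpha, the fasting-related receptor known to regulate hepatic Aqp3 and Aqp9 in mice, 1 fell in Fra1 mutants and none in Fra2 mutants. This was the fatty acid hydroxylase Cyp4a10 (log2 fold change -3.24 ± 0.74, SE, adjusted p = 0.0363 by edgeR), which has close paralogs, so that its count is uncertain. All 13 had a negative log2 fold change in Fra1 mutants, with a median of -0.69, and 5 of 13 in Fra2 mutants, with a median of 0.03; of all tested genes 49% were negative in Fra1 and 50.9% in Fra2. Of 7 tested genes regulated by PPAR-gamma, which drives Aqp7 in adipocytes, 1 rose in Fra2 mutants and none passed in Fra1 mutants. The riser was Cidec (log2 fold change 4.79 ± 0.96, SE, adjusted p = 0.0447 by edgeR). It was also higher in all Fra1 mutants than in the Fra1 controls (log2 fold change 3.80 ± 1.08, SE, adjusted p = 0.0869 by edgeR). Its difference of effects between strains did not pass (adjusted p = 0.954 by edgeR). Pparg itself had 78, 49 and 124 counts in Fra1 mutants, against 157, 137 and 151 in Fra1 controls, and 70, 101 and 69 in Fra2 mutants, against 241, 196 and 176 in Fra2 controls; it was lower in all 6 mutants and did not pass (adjusted p = 0.131 in Fra1 and 0.0629 in Fra2 by edgeR).

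Of 10 genes of bile secretion at the hepatocyte membrane, the site of Aqp8, 1 fell in Fra1 mutants and none passed in Fra2 mutants. Abcb11, the bile salt export pump, averaged 435 CPM ± 30.5 in Fra1 mutants and 715 ± 84.1 in Fra1 controls (SD, n = 3 each; log2 fold change -0.72, adjusted p = 0.0132 by edgeR). The list's median log2 fold change was -0.28 in Fra1 and -0.13 in Fra2. None of 11 genes of cell volume and ion transport and none of 12 genes of hydrogen peroxide handling passed in either strain, with medians of 0.21 and -0.19 in Fra1 and 0.05 and 0.01 in Fra2.

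Some markers of cell types and liver zones were also separated between the Fra1 groups. None of 9 pericentral hepatocyte markers passed in Fra1 mutants, all 9 had a negative log2 fold change (median -0.67; 49% of all tested genes were negative), and they summed to 2550 to 7360 CPM in Fra1 mutants against 8550 to 8980 in Fra1 controls. In Fra2 livers they summed to 7940 to 12600 CPM in mutants and 8460 to 9840 in controls. Of 8 periportal markers Cdh1 rose in Fra1 mutants, where 3 of 8 had a negative log2 fold change (median 0.22). Hsd17b13 fell in Fra2 mutants and was the 1 of 8 with a negative log2 fold change there (median 0.26). The 8 summed to 4840 to 6580 CPM in Fra1 mutants and 5610 to 6050 in Fra1 controls. In Fra2 livers they summed to 6820 to 7360 CPM in mutants and 4510 to 7640 in controls. Of 7 stellate cell markers Dcn and Lum rose in Fra1 mutants, and the 7 summed to 354 to 437 CPM in Fra1 mutants against 224 to 264 in Fra1 controls. The 10 cholangiocyte markers, 7 of them tested and none called, summed to 67.7 to 366 CPM in Fra1 mutants and 105 to 149 in Fra1 controls. None of the 8 macrophage markers passed in either strain. The part of these markers in the falls of Aqp8 and Aqp4 was not tested.

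The genes whose log2 CPM was most like that of each tested aquaporin over the 12 libraries were taken from 12762 protein-coding genes, as a description; libraries share strain and genotype, so these correlations also carry the group differences. Aqp8 was most like Pltp, the phospholipid transfer protein of plasma (r = 0.952), and Pdzk1ip1 (0.948), and most opposed to the histone methyltransferase Kmt5a (-0.959). Pltp had 57.1, 43.2 and 46.1 CPM in Fra1 mutants against 142, 117 and 89.6 in Fra1 controls, and 53.8, 93.3 and 60 CPM in Fra2 mutants against 95.9, 215 and 136 in Fra2 controls. Like Aqp8, it was lower in all mutants of each strain and was highest in Fra2 control 2 (adjusted p = 0.0429 in Fra1 and 0.133 in Fra2 by edgeR).

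Aqp4 was most like Fabp2, the fatty acid binding protein known from intestine (0.935), Tgds (0.932) and the lipase Pnpla5 (0.93). Fabp2 had 38.8, 39.3 and 37.4 CPM in Fra1 mutants against 102, 94.6 and 78.2 in Fra1 controls. It had 58.5, 104 and 59.9 CPM in Fra2 mutants against 42.9, 134 and 95.1 in Fra2 controls, with control 1 below all mutants as it was for Aqp4. Aqp7 was most like Micu2, a regulator of mitochondrial calcium uptake (0.92), Itpkc, an inositol trisphosphate kinase (0.916), and the spectrin Sptan1 (0.909), and most opposed to the acute phase protein Lbp (-0.926). Micu2 had 85.6, 77.3 and 82.8 CPM in Fra1 mutants and 83.9 in Fra2 mutant 2, against 42.2 to 59.6 in the other 8 libraries. Aqp7 itself had 1 to 7 counts in the control libraries, so its correlations also rest on few counts.

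Aqp9 was most like Tsc22d1 (0.968), the alcohol dehydrogenase Adh4 (0.967) and Mup9 (0.957), a urinary protein gene with near-identical copies and hence an uncertain count; the rank correlations of Tsc22d1 and Mup9 were lower, at 0.748 and 0.615. Aqp1 was most like Flt1, a receptor for vascular endothelial growth factor (0.907), Olfml2b (0.865) and Padi2 (0.853). Aqp11 was most like Ccnc (0.896), Cdr2 (0.88) and Snrpn (0.869). Olfml2b (5 to 21 counts a library), Padi2 (4 to 21) and Cdr2 (1 to 59) are low, so their correlations rest on few counts. Sorbs2 (-0.928 with Aqp4), Cadm1 (-0.94 with Aqp9), Cutc (-0.881 with Aqp1) and Notch1 (-0.869 with Aqp11) were the most opposed genes. Between members, Aqp8 correlated with Aqp4 (0.78) and Aqp9 (0.716), and Aqp7 with Aqp9 at -0.565, over the same 12 libraries.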

How the data were processed

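Per the labels' protocols, liver RNA of 12 mice was extracted with Trizol, selected for poly(A) and made into strand-marked libraries. The deposited values are raw counts, whole numbers for each gene. The submitters' processing notes name GRCm38 (mm10), bedtools 2.27.1, RSEM, STAR 2.6.1a and DESeq2 1.22.2. No source used here gives the counting tool, gene annotation, strand option or handling of reads that match several places, so counts of paralogs are uncertain.

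Titles gave the groups. Positions and lengths came from GENCODE M21 (GRCm38), which held 55154 of the 55421 identifiers once versions were dropped. The main test was the robust quasi-likelihood test of edgeR 4.0.16 (R 4.3.3) on TMM-scaled counts, in 1 model of all 12 libraries with a mean for each of the 4 groups. The filter was filterByExpr by group with a minimum count of 10. P-values are two-sided and adjusted by Benjamini-Hochberg over 14076 genes; SEs and 95% intervals derive from the test statistic. Ratios of summed counts have exact 95% counting intervals, and a count of 0 allows 3 counts; both cover counting error only. Likeness used log2 CPM with 0.5 added to each count.

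The members, lists and tests were chosen with earlier results of these data known. Named are the 7 members and the rest of the family, Fosl1 and Fosl2, up to 4 called genes of a list, and for each tested member the 3 most alike genes and the 1 most opposed, of which 1 gene is not reported here; Gk, Alas2, Alb, Apob, Adipoq, Lep and Plin1 were named after their values were seen. DESeq2 1.42.0, RLE factors, unscaled libraries, unfiltered genes, the compared groups alone, a replicate block and leaving out each library were tried as alternatives. Scripts were tested on simulated counts. No 2 libraries of a group agreed within sampling noise (chi-square per degree of freedom at least 31.1 in 12 pairs). Deviations of same-numbered mutants and controls correlated between -0.103 and 0.056, so the numbers were not taken as pairs. The design also names an earlier strain, not analysed here.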

Additional observations from a re-analysis of the deposited data

How the results depend on the processing

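By edgeR's quasi-likelihood test, 2 aquaporins passed in Fra1 mutants with TMM factors, RLE factors, no scaling factor or only the libraries compared; it was 4 by DESeq2, 0 with no filter (adjusted p 0.137 for Aqp4 and 0.0899 for Aqp8, with more genes tested), and 0 to 1 with 1 Fra1 library left out. Fitting only the Fra1 libraries, Aqp8 was lost (adjusted p = 0.067 by edgeR) and Aqp7 gained. In that fit Aqp7 passed the filter on low counts only through the mutants, and Aqp4 only through the controls. The share of all genes that passed in Fra1 with RLE factors, no scaling factor or the Fra1 libraries alone is not given here. In Fra2 mutants the number was 0, with 1 by DESeq2 and 0 to 1 with 1 library left out. Over all genes, DESeq2 called 1006 in Fra1 (edgeR 540), 438 in Fra2 (150), 70 for the difference (5) and 17 between controls (0). With no filter the difference had 9 and the controls 3. Fitting only the libraries compared gave 90 in Fra2, where Aqp7 did not pass the filter and has no value. With 1 library left out, the counts ran from 267 to 434 in Fra1, 53 to 113 in Fra2, 0 to 13 for the difference and 0 to 1 between controls.

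The numbers of the replicates pair no samples by the check above. With the replicate block 98 genes passed in Fra2. In Fra1 3 aquaporins passed, Aqp7 being added (adjusted p = 0.0395 by edgeR). Aqp7 passed the filter on low counts only through mutant libraries, so its gain is a description. The share of all genes that passed in Fra1 with the block is not given here, so the 3 cannot be set against it. In each strain 1 of 3 mutants correlated best with the control of its own number. No paired fit was made for the controls.

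Signs changed only in values that had not passed. With 1 library left out, log2 fold changes in Fra2 ran from -1.47 (without mutant 2) to 3.80 for Aqp7 and from -0.36 to 0.27 for Aqp1. Between controls they ran from -0.19 to 0.44 for Aqp1, from -0.23 to 1.07 for Aqp4 and from -0.18 to 0.135 for Aqp11. The difference of effects ran from -0.094 to 0.22 for Aqp11 and from -0.25 to 0.31 for Aqp8, and for Aqp8 it was -0.063 with no scaling factor. Dropping the factor put the median of all genes in Fra1 mutants at 0.15, against 0.01 with it. The cause of these changes was not tested. Scaling by the longest coding transcript, chosen after seeing the data, moved the per-length level of Aqp11 to 11.6 in Fra1 mutants and 10.3 in Fra1 controls. Depth limits Aqp3, Aqp5 and the control levels of Aqp7, which rest on 0 to 7 counts a library.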
